A study of Mus musculus with 8 samples.

Results

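Ager, Hopx, Pdpn, Aqp5, Emp2, Limch1, Rtkn2, Akap5, Cav1 and Clic5 are 10 genes known from alveolar type 1 cells. Their transcripts were followed here in mouse lung samples labelled as club cells. They were chosen by symbol. Each was read from a probe set of the array whose annotation named that gene and no other. A gene with several such probe sets was read from the brightest on average. All 10 genes had such a probe set, of 22180 genes on the array, and all 10 lay above the level filter and were among the 13112 genes tested.

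The study compared club cells, which line the small airways and secrete protective proteins, between Atgl KO/cTg mice (4 pools of 4 mice, aged 38 to 46 weeks) and wt/cTg mice (4 pools of 3 or 4 mice, aged 41 to 48 weeks). Atgl is the older name of Pnpla2, the lipase that starts the breakdown of stored triglycerides. Both genotypes carry cTg, which the labels do not expand, and for the promoter or cells in which it acts nothing is given in the sources used here. The mice had chow and no treatment, each pool was hybridised to 1 array, and a replicate is therefore a pool of animals. The study is described as arranged in sets that compare the genotypes, but which pools belong together is not stated. The main fit was therefore unpaired.

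Alveolar type 1 cells are the very thin, flat cells that cover most of the gas exchange surface of the lung, with capillaries pressed against their basement membrane. They arise from alveolar type 2 cells, the cuboidal cells that make surfactant, and during this change cells stretch, switch on Hopx and Ager and rebuild their cytoskeleton. They belong to the alveoli and not to the airway. Several of the 10 genes are also known from other cells: Cav1, Emp2 and Clic5 from endothelium, Pdpn from mesothelium and lymphatic vessels, and Aqp5 from airway glands.

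The 11 club cell genes tested, Scgb1a1 among them, had a mean log2 signal of 10.73 to 11.10 in the 8 pools. Transcripts of other cells were high too. The mean of 15 alveolar type 2 genes was 10.17 to 11.001, and that of 10 leukocyte genes 9.08 to 9.72. Over the pools Scgb1a1 read 12.79 to 13.03, Sftpc of the type 2 list 12.50 to 13.03 and Ighm of the leukocyte list 11.66 to 13.01. The purity of the pools was not tested. A pair of pools stood apart from the rest. On the first principal component of the 13112 genes, which held 29.3% of the variance, Atgl KO/cTg replicate 2 lay at one end and wt/cTg replicate 4 at the other. The latter pool also read 3.75 for Xist, the transcript of the inactive X chromosome, against 9.34 to 10.67 in the other pools. Pnpla2 itself separated the genotypes in every pool, with 6.70 to 7.16 in Atgl KO/cTg and 8.62 to 8.86 in wt/cTg (log2 signal).

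Most alveolar type 1 transcripts had a lower mean in Atgl KO/cTg than in wt/cTg, but none passed the test over all genes. Of the 10 genes, 9 had a log2 difference (Atgl KO/cTg minus wt/cTg) below 0 and Aqp5 lay above 0, with a median of -0.27 against -0.01 over all genes tested, of which 52.2% lay below 0. With limma and a Benjamini-Hochberg adjusted p under 0.05, 0 of the 10 passed, beside 0.0991% of all genes tested (0.0839% lower and 0.0153% higher in Atgl KO/cTg). At an unadjusted limma p under 0.05, 3 of the 10 passed, all lower in Atgl KO/cTg (Ager, Emp2 and Limch1), beside 4.56% of all genes in that direction and 7.95% in either. This count of 3 was 1 (Limch1) without Atgl KO/cTg replicate 2, 2 (Emp2 and Limch1) without Atgl KO/cTg replicate 1 or without the control pool wt/cTg replicate 4, and 0 without both end pools of the first principal component. It was 5, with Akap5 and Cav1 added, without wt/cTg replicate 3 and also with runs of neighbouring mouse numbers as a block. In that block wt/cTg replicate 3 was alone in its run and added nothing to the genotype difference, so these settings are not independent. The groups did not overlap for 1 of the 10 (Emp2), lower in Atgl KO/cTg, beside 2.62% of all genes in that direction and 4.35% in either. Because these are bulk samples, fewer alveolar type 1 cells, fewer other cells that express these genes and less of these RNAs per cell cannot be told apart.

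**Figure D1:**
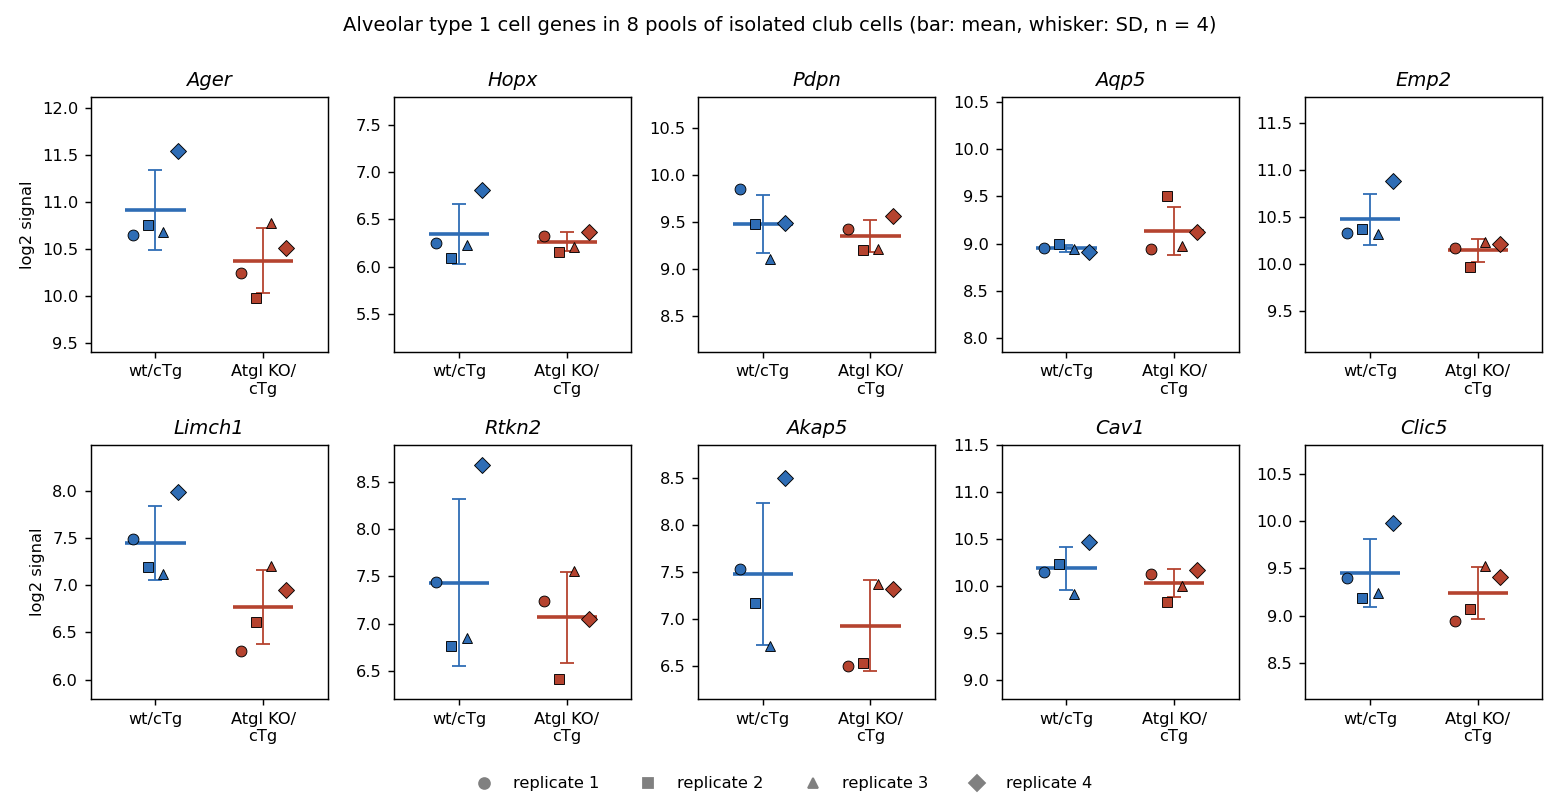
Log2 signal (y axis) of the 10 alveolar type 1 genes in wt/cTg (blue) and Atgl KO/cTg (red), with a point for each pool, a bar for the mean and a whisker for the SD (n = 4). Every y axis spans the same log2 range. wt/cTg replicate 4 (blue diamond) is the highest pool in 8 of the 10 panels, and Emp2 is the only panel in which the groups do not overlap.

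The sequence before the start of these genes was read for the binding cores of factors known to act in alveolar type 1 cells. Of the 10 genes, 9 matched the RefSeq promoter table (GRCm38.p6), with 13 starts among them, and Rtkn2 had no entry. Within the 250 bases before each start, the TEAD core GGAATG was found on neither strand in any of the 13, and 12.6% of the 32851 promoters of the table hold it. The NKX2-1 core CTCAAG was found in 1, a Hopx promoter, as CTTGAG on the printed strand with its first base at position -112 from the start, and 13.3% of all promoters hold it. The 4 windows below are those of Ager and Emp2, both lower in most knockout pools, of Aqp5, which went the other way, and of Hopx with its motif in capitals. They lie at chr17:34597600-34597849 (plus strand), chr16:10313969-10314218 (minus strand), chr15:99590778-99591027 (plus strand) and chr5:77115124-77115373 (minus strand), and end at the base before the start.
Ager: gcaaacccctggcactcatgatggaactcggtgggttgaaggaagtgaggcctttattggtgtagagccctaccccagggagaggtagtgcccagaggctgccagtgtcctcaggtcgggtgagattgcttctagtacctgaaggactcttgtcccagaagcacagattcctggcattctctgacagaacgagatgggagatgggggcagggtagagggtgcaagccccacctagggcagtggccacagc
Emp2: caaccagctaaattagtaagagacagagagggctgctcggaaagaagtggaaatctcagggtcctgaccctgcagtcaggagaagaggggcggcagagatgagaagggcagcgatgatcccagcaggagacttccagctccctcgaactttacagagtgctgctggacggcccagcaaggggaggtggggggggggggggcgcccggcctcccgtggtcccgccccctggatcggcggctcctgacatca
Aqp5: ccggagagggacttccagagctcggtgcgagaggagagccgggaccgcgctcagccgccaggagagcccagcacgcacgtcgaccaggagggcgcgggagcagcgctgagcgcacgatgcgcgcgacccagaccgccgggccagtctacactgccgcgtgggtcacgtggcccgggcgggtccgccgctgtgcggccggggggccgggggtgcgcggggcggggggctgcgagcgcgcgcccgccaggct
Hopx: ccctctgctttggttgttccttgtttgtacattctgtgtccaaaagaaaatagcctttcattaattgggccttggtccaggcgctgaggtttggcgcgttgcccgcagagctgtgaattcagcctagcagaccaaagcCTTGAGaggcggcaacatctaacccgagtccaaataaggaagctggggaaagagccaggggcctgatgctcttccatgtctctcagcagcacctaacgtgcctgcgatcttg
The windows differ in base composition. The Aqp5 window held 78.4% G and C with 38 CpG sites, that of Emp2 62.8% with 11, that of Ager 57.6% with 3 and that of Hopx 52.4% with 8. Over all promoters of the table the medians were 52.4% and 6 CpG sites. A match of letters is a description of these windows and no measure of binding.

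Ager encodes RAGE, a receptor for advanced glycation end products, HMGB1 and S100 proteins, which in lung sits on the basal face of alveolar type 1 cells. Its log2 signal was 10.24, 9.98, 10.78 and 10.51 in the Atgl KO/cTg pools and 10.65, 10.76, 10.68 and 11.54 in the wt/cTg pools. The control pools lay between 10.65 and 10.76 except for wt/cTg replicate 4, which was 0.84 above the mean of the others, and Atgl KO/cTg replicate 3 reached into the control range. This was a log2 difference of -0.53 with an SE of 0.21 (limma adjusted p = 0.547; exact permutation p = 0.114), a level of 0.691 of the control with a 95% interval from 0.504 to 0.949. It was -0.32 without wt/cTg replicate 4, where the unadjusted limma p was 0.0621, and -0.19 without that pool and Atgl KO/cTg replicate 2.

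Pdpn encodes podoplanin, the mucin-type surface protein first used to mark alveolar type 1 cells and the ligand of the platelet receptor CLEC-2. It read 9.42, 9.20, 9.22 and 9.56 in Atgl KO/cTg and 9.84, 9.48, 9.10 and 9.48 in wt/cTg. The groups lay across each other, with the highest pool (wt/cTg replicate 1) and the lowest (wt/cTg replicate 3) both in the control group. Its log2 difference of -0.13 (SE 0.14, limma adjusted p = 0.872) was smaller than the SD between control pools, 0.30, and went to -0.0042 without wt/cTg replicate 1. Pdpn did not share the high value of wt/cTg replicate 4, which lay 0.0087 above the mean of the other control pools.

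Mesothelial transcripts, another known source of Pdpn, moved between pools too. The mean log2 signal of 5 mesothelial genes (Msln, Upk3b, Wt1, Lrrn4 and Gpm6a) was 9.49 to 10.04 in Atgl KO/cTg and 9.47 to 10.01 in wt/cTg, and it was lowest in wt/cTg replicate 3, the pool in which Pdpn was lowest. Atgl KO/cTg replicate 3 was almost as low (9.49). The mesothelial mean was highest in Atgl KO/cTg replicate 1 (10.04), where Pdpn read 9.42, whereas Pdpn was highest in wt/cTg replicate 1. The mean of 3 lymphatic vessel genes was highest in wt/cTg replicate 4 (8.52), where Pdpn read 9.48. Whether mesothelial or lymphatic cells had a part in the Pdpn values was not tested.

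Aqp5 encodes the water channel of the apical membrane of alveolar type 1 cells, and it was the gene with a difference above 0. The Atgl KO/cTg pools read 8.94, 9.50, 8.98 and 9.12, and the wt/cTg pools 8.950, 8.9998, 8.942 and 8.907. The control pools were close together (SD 0.04), and Atgl KO/cTg replicate 2 stood 0.49 above the mean of the other knockout pools. The difference of 0.19 (SE 0.11, limma adjusted p = 0.742) was 0.06 without that pool, so 1 pool carried most of it.

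In the same pool the mucus-cell genes were at their highest. The mean log2 signal of 8 goblet cell genes, among them Muc5ac and Muc5b, the gel-forming mucins, was 9.45 in Atgl KO/cTg replicate 2 and 8.29 to 8.60 in the other Atgl KO/cTg pools. In the control pools it was 7.15 to 8.39, with the lowest value in wt/cTg replicate 4, the pool in which Aqp5 was also lowest. Aqp5 spanned only 8.907 to 8.9998 in the control pools, however. Its highest control pool, wt/cTg replicate 2, had a goblet mean of 8.12, below the 8.39 of wt/cTg replicate 1. All 8 goblet genes had their highest value in Atgl KO/cTg replicate 2, which holds for 22.9% of all genes tested, and their part in the Aqp5 values was not tested.

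Hopx encodes a small homeodomain protein without DNA binding of its own, a transcriptional cofactor that marks alveolar type 1 cells early. Its values were 6.32, 6.15, 6.21 and 6.37 in Atgl KO/cTg and 6.25, 6.09, 6.23 and 6.81 in wt/cTg. Except for wt/cTg replicate 4, all pools of both genotypes fell between 6.09 and 6.37. The difference was -0.08 (SE 0.15, limma adjusted p = 0.942), with a 95% interval from 0.751 to 1.19 of the control level, and it turned to 0.08 without wt/cTg replicate 4.

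Emp2 encodes a tetraspan membrane protein of alveolar type 1 and endothelial cells that takes part in caveola formation and in integrin signalling. It read 10.17, 9.96, 10.24 and 10.21 in Atgl KO/cTg against 10.33, 10.37, 10.32 and 10.88 in wt/cTg. Every knockout pool lay below every control pool, the gap between the groups being the step from 10.24 to 10.32. This gave a log2 difference of -0.33 (SE 0.12, limma adjusted p = 0.524), a level of 0.797 of the control with a 95% interval from 0.662 to 0.959. The exact permutation p was 0.0286, the smallest that 8 arrays can give. Without wt/cTg replicate 4 the difference was -0.19, and without both end pools it was -0.13.

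Cav1 encodes caveolin-1, the protein that shapes caveolae, the small membrane pits that are dense in both alveolar type 1 cells and capillary endothelium. It read 10.13, 9.835, 10.0003 and 10.17 in Atgl KO/cTg and 10.15, 10.24, 9.91 and 10.47 in wt/cTg. The groups overlapped, and the difference of -0.16 (SE 0.12, limma adjusted p = 0.788) was -0.06 without wt/cTg replicate 4 and 0.0025 without both end pools. Of its 6 caveola partners, 5 had a difference below 0 and 1 above, none passed over all genes, and the median was -0.16. That median was -0.059 without wt/cTg replicate 4, -0.106 without wt/cTg replicate 1 and -0.048 without both end pools. Cavin2 and Cavin3, which coat the caveola bulb, lay at -0.29 and -0.18, Ehd2, the ATPase at its neck, at -0.18, and Cav2, the partner caveolin, at -0.14. Without wt/cTg replicate 4, Ehd2 lay at -0.071 and Cav2 at -0.037.

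Limch1 encodes an activator of non-muscle myosin II, a regulator of stress fibres. It had the largest difference of the 10 genes. It read 6.30, 6.61, 7.20 and 6.95 in Atgl KO/cTg and 7.49, 7.20, 7.12 and 7.99 in wt/cTg. The groups overlapped through 1 knockout pool, replicate 3, which read 7.20 beside 7.12 and 7.20 in a pair of control pools. Limch1 thus lay at -0.68 with an SE of 0.22 (limma adjusted p = 0.456; exact permutation p = 0.0857), a level of 0.624 of the control with a 95% interval from 0.445 to 0.873. The difference was -0.50 without wt/cTg replicate 4 and -0.45 without both end pools, where the 66.3% that was left was the highest share among the 10 genes. It was also the gene of the 10 that stayed at an unadjusted limma p under 0.05 with each single pool left out in turn (0.00355 to 0.0353), but not without both end pools (0.0641).

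Akap5 encodes a scaffold that anchors protein kinase A at the membrane. The Atgl KO/cTg pools read 6.5008, 6.530, 7.374 and 7.312, and the wt/cTg pools 7.53, 7.17, 6.71 and 8.50. wt/cTg replicate 4 stood 1.36 above the mean of the other control pools, and of the other control values 7.53 lay just above the knockout range and the rest inside it. The difference was -0.55 (SE 0.34, limma adjusted p = 0.745), close to that of Ager, but with an error that reached from 0.408 to 1.15 of the control level. It was -0.21 without wt/cTg replicate 4 and -0.07 without both end pools.

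Clic5 encodes a chloride intracellular channel protein that binds ezrin and links membrane to actin. It read 8.95, 9.07, 9.53 and 9.41 in Atgl KO/cTg and 9.40, 9.19, 9.24 and 9.98 in wt/cTg. The knockout and control pools interleaved apart from wt/cTg replicate 4. The difference of -0.21 (SE 0.18, limma adjusted p = 0.815) was -0.04 without that pool and 0.02 without both end pools.

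Rtkn2 encodes rhotekin 2, and it varied most between pools. On the probe set with the highest mean (17234024) it read 7.24, 6.42, 7.56 and 7.05 in Atgl KO/cTg and 7.44, 6.77, 6.85 and 8.68 in wt/cTg. The difference was -0.37 (SE 0.38, limma adjusted p = 0.853), with wt/cTg replicate 4 lying 1.66 above the mean of the other control pools. Without that pool it turned to 0.05.

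The probe sets of Rtkn2 disagreed in size. Probe set 17234008 read 5.728, 4.820, 6.498 and 6.003 in Atgl KO/cTg and 6.99, 6.70, 6.17 and 7.89 in wt/cTg, a difference of -1.18 (exact permutation p = 0.0571). There a single knockout pool, replicate 3, lay above a control pool, and the difference was -0.86 without wt/cTg replicate 4 and -0.54 without both end pools. Probe set 17241655 read 2.93 to 3.63 on all arrays, under the level filter of 5.18, with a difference of -0.09. With the mean of the 3 probe sets, Rtkn2 lay at -0.54. All 3 probe sets had their highest value in wt/cTg replicate 4.

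**Figure D2:**
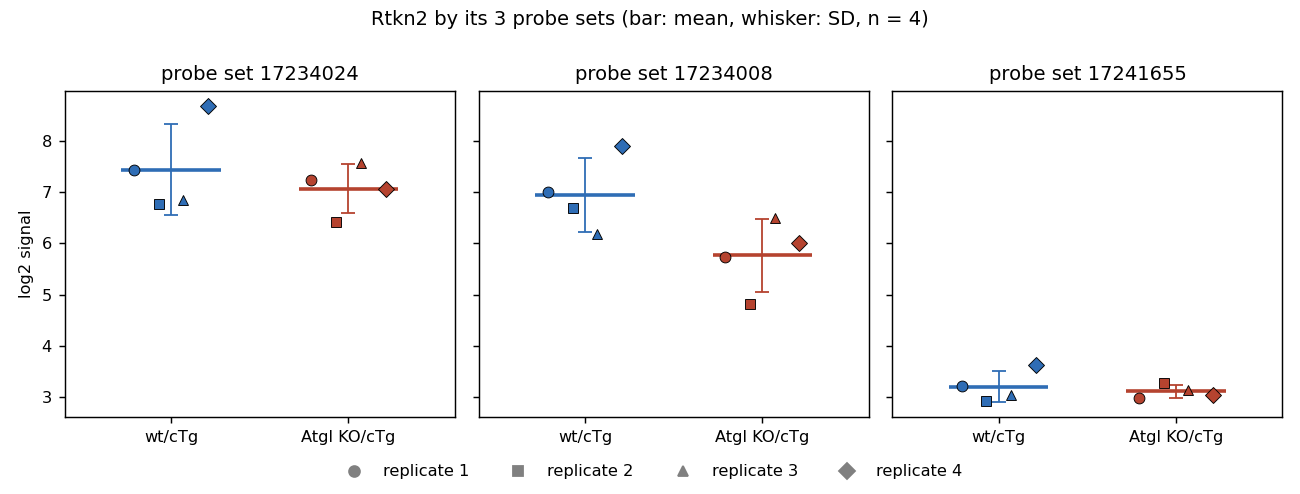
Log2 signal (y axis) of Rtkn2 on its 3 probe sets in wt/cTg (blue) and Atgl KO/cTg (red), with a point for each pool, a bar for the mean and a whisker for the SD (n = 4). Probe set 17234008 shows a difference of -1.18, probe set 17234024 one of -0.37, and probe set 17241655 reads near 3 in both groups.

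Both end pools pulled on most of the 10 genes. wt/cTg replicate 4 was the highest of the 8 pools for 8 of the 10, the exceptions being Pdpn and Aqp5, where 11.5% of all genes tested had their highest value in that pool. Its excess over the mean of the other control pools had a median of 0.66 over the 10 genes and of -0.03 over all genes. Atgl KO/cTg replicate 2 was the lowest pool for 4 of the 10 (Ager, Emp2, Rtkn2 and Cav1), beside 16.3% of all genes, and Atgl KO/cTg replicate 1 was the lowest for 3 (Limch1, Akap5 and Clic5). Without wt/cTg replicate 4 the median difference of the 10 was -0.09, with 7 below 0 and 3 above. Without both end pools it was -0.04, with 5 below and 5 above, 58% of all genes lying below 0 in that fit. The remaining difference was then more than 0.1 below 0 for Limch1, Ager and Emp2.

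**Figure D3:**
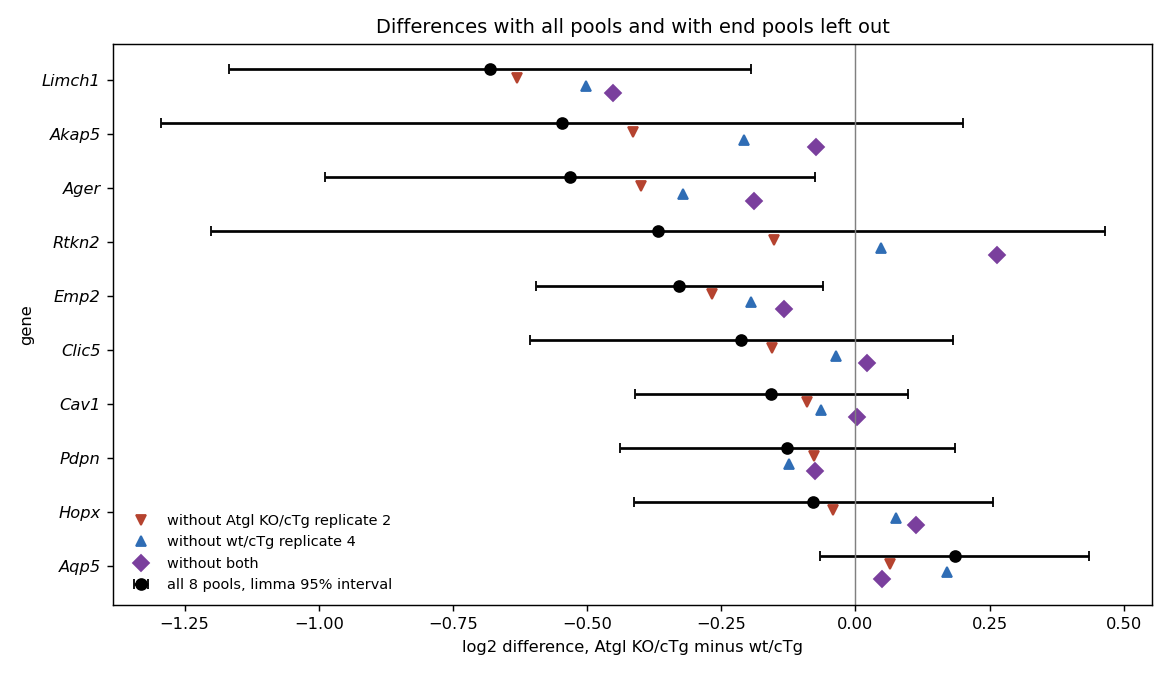
Log2 difference, Atgl KO/cTg minus wt/cTg (x axis), of each of the 10 genes (y axis) with all 8 pools (black, limma 95% interval), without Atgl KO/cTg replicate 2 (red), without wt/cTg replicate 4 (blue) and without both (purple). Leaving out either pool brings all 10 differences closer to 0, with Hopx and Rtkn2 past 0 without wt/cTg replicate 4, and Limch1 lies at -0.45 without both.

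Other transcripts of alveolar type 1 cells were split in direction. Of 24 further genes known from these cells, 23 had a probe set and 20 passed the level filter, with 13 below 0, 7 above 0 and a median of -0.16, where 52.2% of all genes tested lay below 0. None passed over all genes with limma, and at an unadjusted p under 0.05 there were 3 lower (Cldn18, Ndnf and Pmp22) and 2 higher (Scnn1g and Scnn1a), beside 7.95% of all genes in either direction and 4.56% lower. The groups did not overlap for 4 of the 20, of which 2 were lower (Cldn18 and Ndnf) and 2 higher (Scnn1a and Itgb6), beside 4.35% of all genes in either direction and 2.62% lower. The median was -0.04 without wt/cTg replicate 4, -0.086 without Atgl KO/cTg replicate 2, and 0.04 without both, with 9 below 0 and 11 above.

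Cldn18, a tight junction claudin of both alveolar epithelial types, read 7.26, 7.63, 7.83 and 7.59 in Atgl KO/cTg and 8.06, 8.34, 8.23 and 9.06 in wt/cTg. Ndnf, a secreted neuron-derived factor, read 6.095, 5.41, 6.29 and 6.075 against 6.74, 6.77, 6.49 and 7.26. For both genes every knockout pool lay below every control pool. Their differences were -0.84 (SE 0.20, limma adjusted p = 0.285) and -0.85 (SE 0.20, limma adjusted p = 0.299), and without wt/cTg replicate 4 they were -0.63 and -0.70. Scnn1g and Scnn1a, sodium channel subunits that airway cells express too, lay at 0.33 and 0.15. For Scnn1a every knockout pool (10.51 to 10.69) lay above every control pool (10.39 to 10.48).

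Partners of single members showed no common direction. In a list of RAGE ligands and shedding enzymes, 6 of 10 lay above 0 and none passed over all genes. Its leading genes were S100a9 (0.56, limma adjusted p = 0.524) and S100a8 (0.49, limma adjusted p = 0.535), the subunits of calprotectin from neutrophils, while Hmgb1 lay at -0.05. In a list of the YAP and TAZ axis, which drives alveolar type 1 identity through TEAD factors, 8 of 13 lay below 0 with a median of -0.05. Ccn2, a YAP target, lay at -0.26 (limma adjusted p = 0.605), Yap1 at -0.05 and Wwtr1, which encodes TAZ, at -0.08. Among 14 relatives and partners, 7 lay below 0 and 7 above. Emp1 lay at -0.35, but at -0.087 without Atgl KO/cTg replicate 2. Aqp4 lay at 0.44 and Clec1b, the gene of the podoplanin receptor, at -0.33.

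Genes of the transitional state between type 2 and type 1 cells lay on the other side of 0. Of 10 tested, 9 lay above 0, where 52.2% of all genes tested lay below 0. The median was 0.14, and it lay between 0.11 and 0.13 without wt/cTg replicate 4, without Atgl KO/cTg replicate 2 or without both. The keratins Krt18 and Krt8, general epithelial filaments, lay at 0.25 and 0.15, and Itgb6, an integrin subunit, at 0.21, with groups that did not overlap. None passed over all genes, airway epithelium expresses several of these genes, and Itgb6 was also among the 24 further type 1 genes. Most airway lists lay above 0 too, with medians of 0.18 (ciliated, 8 of 9 genes above 0), 0.08 (club, 8 of 11) and 0.64 (goblet, 8 of 8). The basal list had 2 genes below 0 and 2 above.

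The genes outside the list with the most similar course over the pools were picked by distance. The 6 genes nearest in profile, by root mean square distance from the members' mean profile over 8 arrays after each gene was centred on its mean, were Itm2a (0.0412), Podxl (0.0773), Tns1 (0.0824), Mxra8 (0.0826), Pecam1 (0.0845) and Cavin2 (0.0863). Of these, Pecam1 was on the endothelial list and Cavin2 among the caveola partners. The median distance over all genes that are no member was 0.322. Among the members themselves, the distance to the mean of the other 9 ran from 0.107 (Clic5) and 0.12 (Emp2) to 0.442 (Rtkn2) and 0.457 (Aqp5).

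Endothelial and mesenchymal lists carried the same pools at their ends. The mean log2 signal of the 10 alveolar type 1 genes was 8.33 to 8.71 in Atgl KO/cTg and 8.51 to 9.32 in wt/cTg. That of 14 endothelial genes, among them Calcrl and Cdh5, was 8.03 to 8.51 and 8.18 to 8.91, and 10 of the 14 had their highest value in wt/cTg replicate 4. That of 14 fibroblast and smooth muscle genes, among them Dcn and Inmt, was 7.70 to 8.22 and 8.20 to 8.70, with 10 of 14 highest in that pool. No defining marker of either list lay under the level filter. The endothelial median difference was -0.28 with all pools and -0.04 without both end pools, and the fibroblast median -0.42 and -0.24. The part of these cells in the alveolar type 1 values was not tested.

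Alveolar type 2 genes were lower in Atgl KO/cTg by more at the median, and wt/cTg replicate 4 stood out less among them. That pool was the highest for 10 of 15 type 2 genes, beside 11.5% of all genes tested. Its list mean lay 0.19 above that of the other control pools for the type 2 genes, and 0.68 above for the 10 type 1 genes. For the type 2 list wt/cTg replicate 2 came close to it, at 10.99. The mean log2 signal of 15 type 2 genes was 10.17 to 10.41 in Atgl KO/cTg and 10.61 to 11.001 in wt/cTg, so these groups did not overlap, whereas those of the 10 type 1 genes did. The type 2 median was -0.41 with all pools, -0.37 without wt/cTg replicate 4 and -0.36 without both end pools, beside -0.27, -0.09 and -0.04 for the type 1 genes. Over all genes 5 of the 15 type 2 genes fell (Lamp3, Hc, Etv5, Slc34a2 and Sftpc) and 0 of the 10 type 1 genes did, beside 0.0839% of all genes. That 5 was 0 without the variance trend, after quantile normalization and with the mouse-number block. It was 8 with array weights, 7 with median centring and 6 with the level filter at the 75th percentile. Without the level filter it was 4, as with the sex-linked score as a covariate. It was 3 with age as a covariate and 2 without both end pools. It was also 0 without wt/cTg replicate 4 and without 5 of the other pools, each left out alone, and 7 without wt/cTg replicate 1 and also without Atgl KO/cTg replicate 2. The difference between the lists was not tested.

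**Figure D4:**
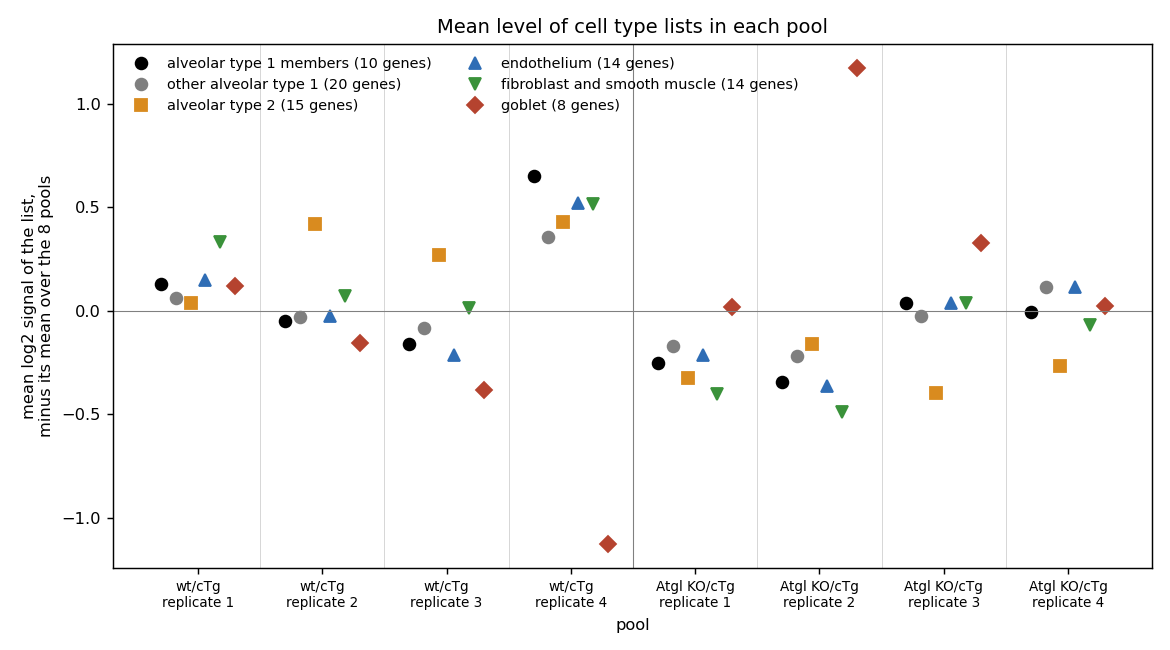
Mean log2 signal of each list of genes, minus its mean over the 8 pools (y axis), in each pool (x axis, control pools left and knockout pools right). In wt/cTg replicate 4 the alveolar type 1, alveolar type 2, endothelial and fibroblast lists are at their highest and the goblet list at its lowest, and the alveolar type 2 list is above 0 in all 4 control pools and below 0 in all 4 knockout pools.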

How the data were processed

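The miRNeasy Micro Kit served for RNA extraction, 50 ng entered the Ovation Pico WTA System V2, and the label was biotin, per the labels. The authors deposited a log2 signal for each probe set on each array (1.85 to 13.5, array medians 5.12 to 5.24), and it was used unchanged. That the scale is log2 follows from the range, and of software and normalization nothing is given in the sources used here. Scan dates and detection calls were not used here, and the number of arrays limits the precision.

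Groups came from the genotype label, and replicate numbers follow sample order. Of 41345 probe sets, 23521 had 1 gene symbol, 1814 several and 16010 none. Genes with a mean above the median of all probe sets (5.18) were tested. The test was that of limma 3.58.1 under R 4.3.3 (lmFit, eBayes with a variance trend, two-sided, Benjamini-Hochberg over 13112 genes, threshold 0.05). Exact two-sided permutation tests ran over 70 arrangements. The fit was tested on simulated data. List values are means of log2 signal over members tested.

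Named were the 10 genes, Pnpla2, up to 4 genes per partner list by smallest p, the 6 nearest profiles and up to 2 genes of highest mean per cell type list. Other genes were named after their values were seen. The members and lists were chosen with earlier results of these data known.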

Additional observations from a re-analysis of the deposited data

Results flagged for a closer look

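Within groups of 4 pools, 80 groups of 40 named genes were checked for a pool far from the other 3, and 7 stood out. Chance gives about 1 in 20 for independent groups of unselected genes. These genes share their arrays, and some were picked by p or by profile in these data. The 7 of 80 therefore cannot be judged against that rate. Among the 10 alveolar type 1 genes, wt/cTg replicate 4 stood above the other control pools for Ager (11.54, next 10.76) and Emp2 (10.88, next 10.37). The same pool stood high for Ccn2 (8.71, next 8.49). Atgl KO/cTg replicate 2 stood low for Cavin2 (9.08, next 9.44). Atgl KO/cTg replicate 4 stood low for S100a8 (9.98, next 10.91) and high for Amotl2 (6.65, next 6.40), and wt/cTg replicate 1 stood high for Aqp4 (7.03, next 6.45).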

How the results depend on the processing

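No alveolar type 1 gene passed the limma threshold under any of the 19 alternatives run, where the smallest adjusted p was 0.225 (Limch1, with age as a covariate). Their median difference ran from -0.33 to -0.094 when each pool was left out, and was -0.14 with array weights and -0.036 without both ends of the first principal component. With the sex-linked score as a covariate it was -0.17. That score was -3.24 in wt/cTg replicate 4, where the Y-linked mean exceeded Xist, and 3.15 to 5.23 in the other pools. With each pool left out, Hopx ran from -0.16 to 0.076 and Rtkn2 from -0.59 to 0.048, both turning sign without wt/cTg replicate 4. Without both end pools Hopx (0.11), Rtkn2 (0.26), Cav1 (0.0025) and Clic5 (0.021) did. The count of all genes past the threshold, 13, ran from 1 to 25 when each pool was left out. Dropping the level filter gave 7, adding age gave 7, and it was 1 without the variance trend or after quantile normalization, 23 with array weights, 3 with runs of neighbouring mouse numbers as a block and 8 without both end pools. Median centring gave 18 lower and 1 higher against 11 and 2. The causes were not tested. The study is described as arranged in sets, which the main fit, being unpaired, did not take into account. No paired analysis was possible because the labels give no replicate numbers and do not say which pools form a set. Runs of neighbouring mouse numbers, read from the titles, are no stated pairing and were tried as a block. There wt/cTg replicate 3 was alone in its run and added nothing to the genotype difference. In that fit the members' median was -0.31. Akap5 (-0.70, limma adjusted p = 0.527) and Cav1 (-0.23, limma adjusted p = 0.693) joined Ager, Emp2 and Limch1 below the unadjusted threshold.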
